A study of Mus musculus with 6 samples.

Results

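Of the 5 GABA-A receptor subunit genes described here (Gabra3, Gabra5, Gabrb2, Gabrg3 and Gabrd), Gabrg3 gave the one probe that differed between the strains by the test used across the array, with a higher level in BTBR prefrontal cortex. The genes were taken by name, as the subunits lying outside the Gabra2 gene cluster, and every non-control probe carrying one of these names was kept. This gave 12 of the 41174 probes on the array, for 5 of the 21156 genes it names. Since the probes were picked by these names, the names are no check on the label. The samples were whole prefrontal cortex of 3 C57BL/6J mice (wild type) and 3 mice of the genotype BTBR T+ Itpr3tf/J, all male, 5 months of age and without drug treatment, with 1 one-colour Agilent array per mouse. C57BL/6J is the usual inbred reference strain, and BTBR is an inbred strain used as a model of autism-like behaviour. The strains differ across the whole genome, so no difference given here belongs to 1 allele. The strain background field of the BTBR samples reads C57BL/6J, while their genotype field and titles read BTBR; the titles were followed.

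GABA-A receptors are pentameric chloride channels opened by the inhibitory transmitter GABA, and the subunits that make up a channel set where it sits and how it responds. Alpha and beta subunits form the GABA binding site. A gamma subunit next to an alpha subunit forms the benzodiazepine site and holds channels at synapses, whereas receptors with a delta subunit lie outside synapses and carry tonic inhibition. In the mouse genome many of these genes lie side by side. In RefSeq's GRCm38.p6 order, used here for gene order only, Gabrg3 and Gabra5 are neighbours on chromosome 7 with Oca2 on the Gabrg3 side, Gabrb2 lies between Gabra6 and Atp10b on chromosome 11, Gabra3 is next to Gabrq on chromosome X, and Gabrd lies alone between Prkcz and Cfap74 on chromosome 4.

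Each probe is a 60-base oligonucleotide, and its sequence shows which piece of a transcript was read. The probes below are the one that passed the test and the probes of Gabra3 and Gabra5 that lie nearest the start of their transcripts, each 5′ to 3′ as the scanner files give it. No base is marked, so all letters are lower case.

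Gabrg3 A_51_P372497: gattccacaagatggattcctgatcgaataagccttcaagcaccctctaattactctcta

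Gabra3 A_52_P364645: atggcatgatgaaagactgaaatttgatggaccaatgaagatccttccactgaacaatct

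Gabra5 A_51_P151316: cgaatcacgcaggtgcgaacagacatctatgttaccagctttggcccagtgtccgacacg

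The files place the Gabrg3 probe at base 1172 of the transcript NM_008074 and at chr7:63980053-63984694 of mm9, minus strand. That stretch of 4642 bases is longer than the 60-base probe, as for a probe that crosses an intron. The Gabra3 probe starts at base 637 of NM_008067 (chrX:69746547-69746606, minus strand), and the Gabra5 probe at base 554 of NM_176942 (chr7:64744503-64744562, minus strand). Each of these probes has at least 1 reading frame free of stop codons, as do 9 of the 12 probes. An exon and UTR annotation of mm9 was not used here.

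Levels below are log2 of the scanner's processed signal relative to the 75th percentile of all probes on that array, so 0 is the brightness of that percentile and 1 unit is a doubling. Levels of different probes are not compared, since each binds with its own strength. A probe entered the test if 3 or more of the 6 arrays read it as well above background. This held for 10 of the 12 probes, each of them above background on all 6 arrays, and the other 2 probes are given by their values only. In limma's test with Benjamini-Hochberg adjustment over all 30011 tested probes, 1 of the 10 probes (10%) had an adjusted p below 0.05, against 5.44% of all tested probes in either direction (2.19% of all tested probes were called higher in BTBR and 3.25% lower). Across the same 10 probes, 8 had a higher mean in BTBR and 2 a lower one, against 57.2% of all tested probes with a higher mean in BTBR, and the median log2 difference was 0.17, against 0.04 over all probes tested. At an unadjusted p below 0.05 there were 2 of the 10, against 16.8% of all probes. The strains did not overlap for 3 of the 10, all higher in BTBR, against 11.9% of all probes with BTBR higher, 11% with BTBR lower and 22.8% in either direction.

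The 75th percentile of the processed signal was 1209 to 1607 on the C57BL/6J arrays and 859 to 1184 on the BTBR arrays. Between 68.2% and 74.5% of probes per array were well above background, no probe was saturated, and arrays of a strain correlated at 0.9841 to 0.9931 over tested probes. All 11 markers of cortical excitatory neurons were measured, and their summed level relative to the 75th percentile was 60.9 to 80.9 in C57BL/6J and 67.4 to 86.9 in BTBR. The third C57BL/6J array stood apart in markers of striatal projection neurons: their summed level, from 10 of 10 genes, was 228 there, against 28.6 and 35.7 for the other C57BL/6J mice and 19.3, 65.0 and 16.3 for the BTBR mice. BTBR array 2 was the next highest, at 2.27 times the median of the others. Other regional markers were uneven too. Olfactory bulb and neuroblast markers were highest on BTBR 2, at 3.61 times the median of the others. Dentate and hippocampal markers summed to 8.05 and 8.46 on C57BL/6J 1 and 2, and to 13.2 to 21.3 on the other arrays. Choroid plexus markers summed to 6.11 on C57BL/6J 1, and to 0.336 to 1.96 on the other arrays. Oligodendrocyte markers were lower in BTBR, with summed levels of 105 to 118 against 144 to 178 in C57BL/6J and 6 of 16 probes, from 5 of 8 genes, past the test. The granule cell markers Gabra6, Cbln3 and Fat2 were too dim to be tested. The other 2 on that list, Neurod1 and Zic1, summed to 3.03 on C57BL/6J 3 and 3.11 on BTBR 2. The other arrays gave 1.42 to 2.10. The arrays lie on 2 slides, with replicates 1 and 2 of each strain on slide 1 and replicate 3 of each on slide 2, so differences within slides are given too. In bulk tissue, fewer cells of a type and less RNA per cell cannot be told apart.

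**Figure D1:**
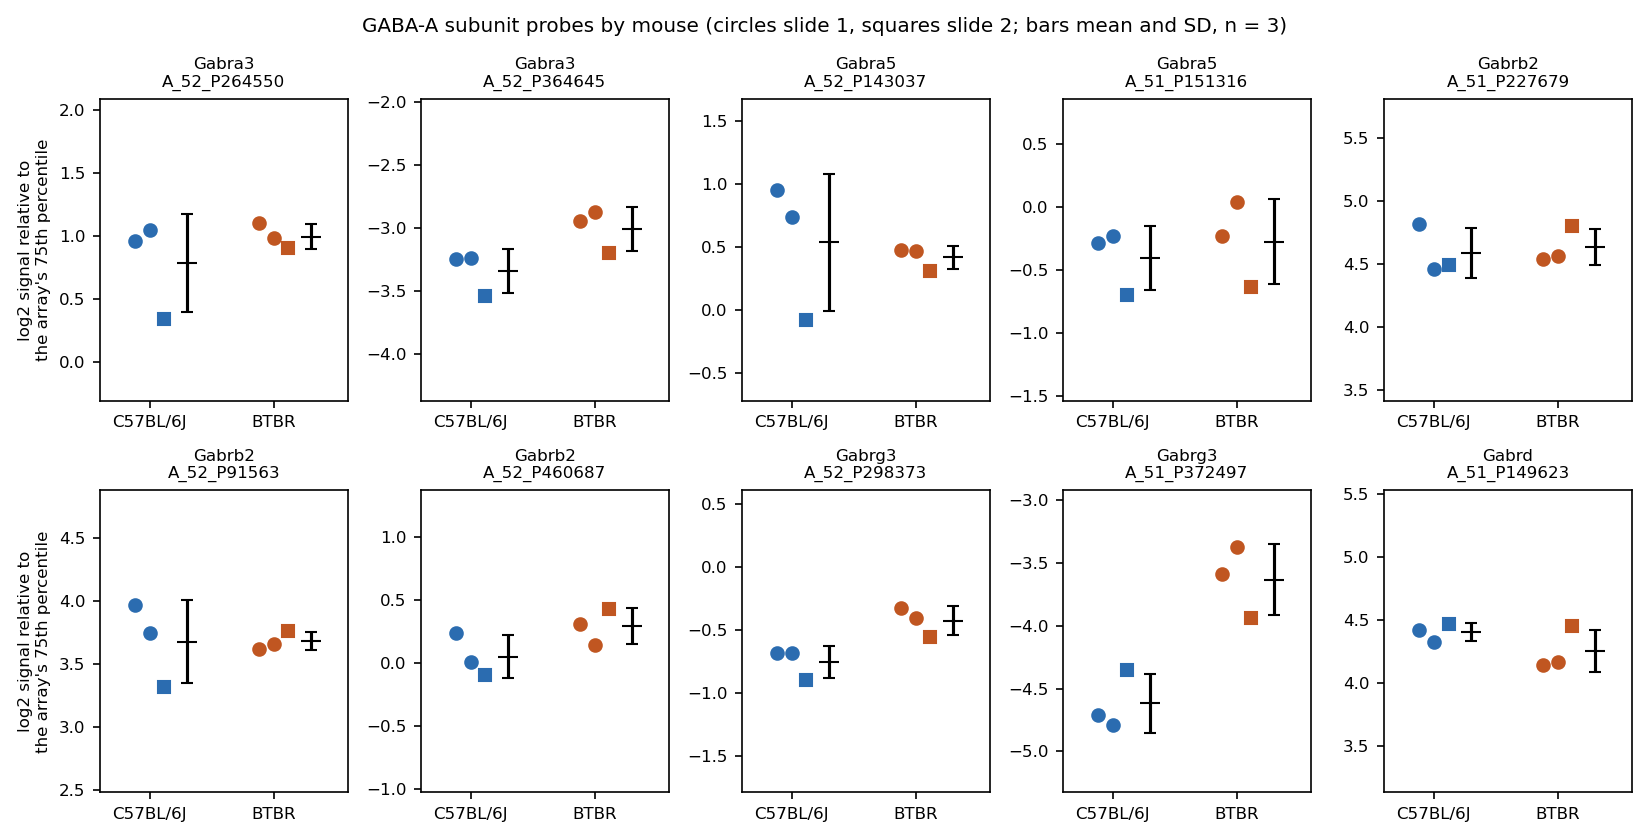
Each panel plots 1 of the 10 tested probes by mouse: the y axis is the log2 signal relative to the array's 75th percentile, circles are slide 1, squares slide 2, and the bars give the mean and SD of 3 mice. Only the Gabrg3 and the second Gabra3 panels show strains that do not overlap, and Gabrg3 probe A_51_P372497 has the widest gap, from -4.35 in the highest C57BL/6J mouse to -3.94 in the lowest BTBR mouse.

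Gabrg3 encodes the gamma3 subunit, one of the scarcer gamma subunits of the brain. At probe A_51_P372497 the 3 C57BL/6J mice had log2 levels of -4.71, -4.79 and -4.35, and the 3 BTBR mice had -3.59, -3.38 and -3.94. Every BTBR mouse lay above every C57BL/6J mouse, with replicate 3 of each strain nearest to the other strain. The means were -4.62 ± 0.23 (SD, n = 3) in C57BL/6J and -3.64 ± 0.28 (SD, n = 3) in BTBR, a log2 difference of 0.98 with a standard error of 0.19. This is 1.97-fold, with a 95% interval of 1.44 to 2.71, and limma's adjusted p was 0.037. The difference was 1.26 on slide 1 and 0.41 between the single mice of slide 2.

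The Gabrg3 probe was dim, so its reading leans on how background and scale were handled. Its mean spot signal was 120.2, 104 and 112.4 in C57BL/6J and 133.2, 145 and 131.8 in BTBR, over local backgrounds of 25 to 31 and 24 to 27. The processed signal before scaling was 61.39, 45.05 and 59.31 in C57BL/6J and 76.19, 82.75 and 77.29 in BTBR. The strains are thus apart before any scaling too, by 1.44-fold, while the 75th percentile itself was 0.729 times as bright in BTBR. For the other 9 tested probes the unscaled ratio was below 1, from 0.656 to 0.919.

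The call at A_51_P372497 was lost in 9 of 19 alternatives, with adjusted p from 0.00307 to 0.962 over all of them and the same direction throughout. With normexp background correction the log2 difference was 0.17 with an adjusted p of 0.962; with the authors' values it was 0.26 and kept the call (0.0337); with slide as a block the adjusted p was 0.062; and without 1 mouse it was 0.133 (C57BL/6J 1), 0.142 (C57BL/6J 2), 0.145 (BTBR 1) or 0.101 (BTBR 2), at differences of 0.85 to 0.96, while leaving out C57BL/6J 3 or BTBR 3 kept it. Without C57BL/6J 3 and BTBR 2, the arrays highest in striatal markers, the difference was again 0.98, with an adjusted p of 0.0624. The part of the lower oligodendrocyte markers in this result was not tested. A strain difference in sequence under the probe and a difference in RNA level cannot be told apart with these arrays.

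The other Gabrg3 probe, A_52_P298373, was designed on the cDNA AK046263 and lies 454 kb away at chr7:64433851-64433910 (mm9, minus strand). Its log2 levels were -0.68, -0.68 and -0.90 in C57BL/6J and -0.32, -0.40 and -0.55 in BTBR. The strains did not overlap here either, and BTBR was higher. The log2 difference was 0.33 with a standard error of 0.12 (1.25-fold), and it did not pass limma's test (adjusted p = 0.236, unadjusted p = 0.0317). It was 0.32 on slide 1 and 0.35 on slide 2, and it kept its sign in all 20 alternatives, at 0.24 to 0.39. Before scaling the strains overlapped, at processed signals of 1002, 777.7 and 650 in C57BL/6J and 734.3, 650.2 and 809.3 in BTBR, an unscaled ratio of 0.914, so the direction at this probe rests on the scaling. After scaling, both Gabrg3 probes read higher in BTBR. The difference between their strain differences was 0.65 on the log2 scale, and the exact two-sided permutation test over the 6 arrays gave p = 0.1, the smallest it can give (0.3 after adjustment over 6 probe pairs). With the probes of a gene averaged, Gabrg3 was higher in BTBR by 0.65 with a standard error of 0.12 (limma, adjusted p = 0.0308 over 16548 genes). With the brightest probe alone, which is A_52_P298373, the adjusted p was 0.205.

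**Figure D2:**
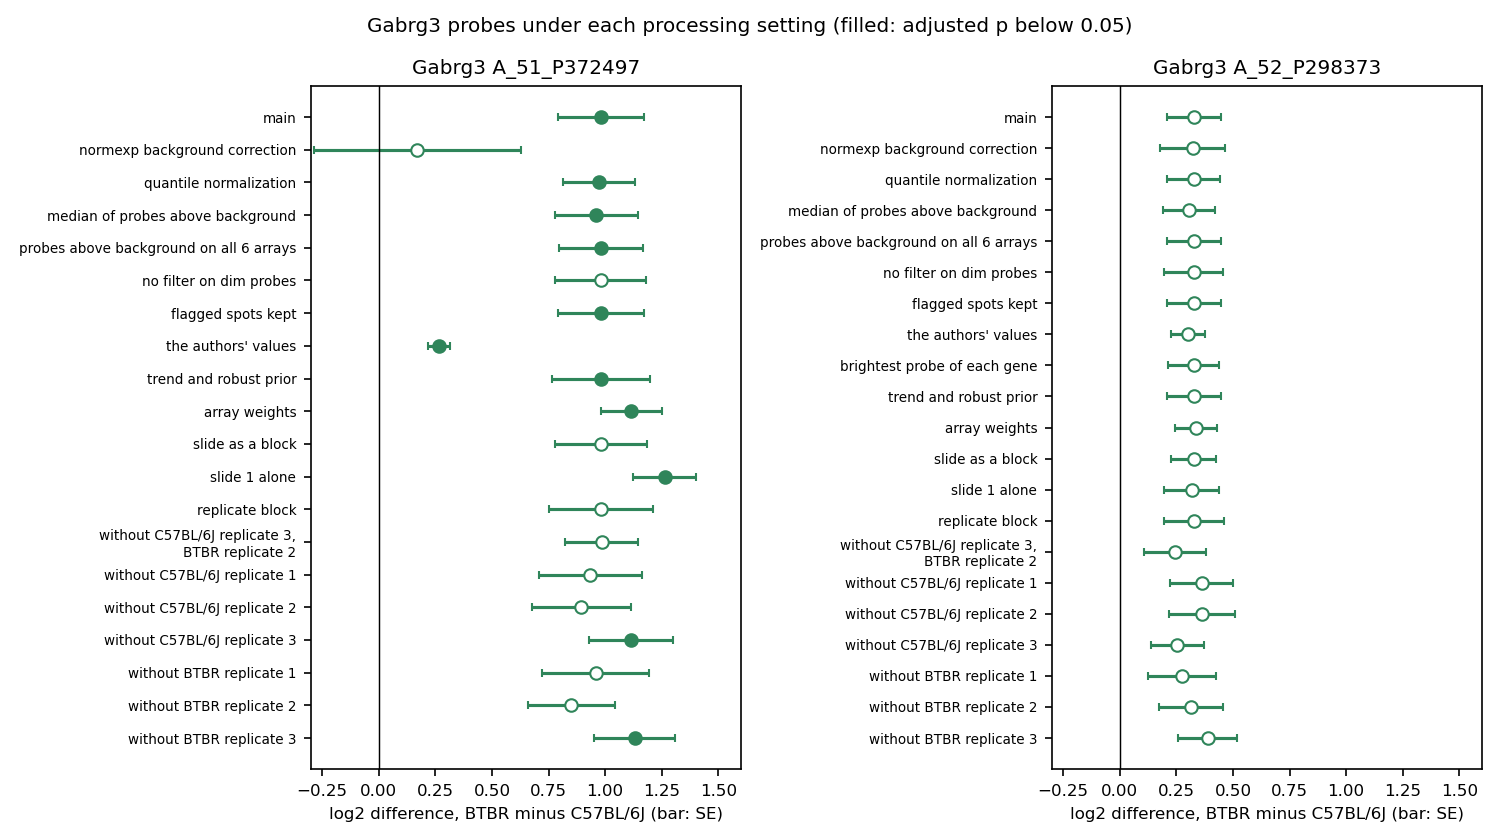
The log2 difference, BTBR minus C57BL/6J, of the 2 Gabrg3 probes is plotted under each processing setting, with bars of 1 standard error and filled points where limma's adjusted p was below 0.05. A_51_P372497 ranged from 0.17 with normexp to 1.26 on slide 1 alone and A_52_P298373 from 0.24 to 0.39, all above 0.

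Gabra3 encodes the alpha3 subunit, found in benzodiazepine-sensitive synaptic receptors and strongly expressed by monoaminergic and reticular thalamic neurons. Its tested probes gave no difference past the test. At A_52_P364645, whose sequence is given above, the log2 levels were -3.24, -3.24 and -3.54 in C57BL/6J and -2.95, -2.87 and -3.20 in BTBR. The strains did not overlap, but by a narrow margin of BTBR 3 over C57BL/6J 1 and 2. The log2 difference was 0.34 with a standard error of 0.14 (limma, adjusted p = 0.316), and it was 0.33 on slide 1 and 0.34 on slide 2. The strains did overlap before scaling, at processed signals of 169.7, 131.6 and 103.8 in C57BL/6J and 119.3, 117.3 and 128.7 in BTBR. The direction therefore rests on the scaling, and with normexp the difference was -0.0097.

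At the other tested Gabra3 probe, A_52_P264550 (base 2525 of NM_008067, chrX:69679157-69679216), the log2 levels were 0.96, 1.05 and 0.34 in C57BL/6J and 1.10, 0.98 and 0.90 in BTBR. The third C57BL/6J mouse was low and the other 5 mice lay together. The difference was 0.21 with a 95% interval of -0.28 to 0.70 (limma, adjusted p = 0.709), and without C57BL/6J 3 it was -0.013. The third Gabra3 probe, A_52_P907953, designed on the cDNA AK082413 (chrX:69731490-69731549), was not well above background on any array.

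Gabra5 encodes the alpha5 subunit, which makes up extrasynaptic receptors that give tonic inhibition to pyramidal cells. The upstream probe A_51_P151316 read -0.29, -0.23 and -0.70 in C57BL/6J and -0.23, 0.04 and -0.64 in BTBR on the log2 scale. Replicate 3, the slide 2 mouse, was the lowest in both strains, and the strains overlapped. The difference was 0.13 with a 95% interval of -0.38 to 0.64 (limma, adjusted p = 0.847). The downstream probe A_52_P143037 (base 2167 of NM_176942, chr7:64663486-64663545) read 0.96, 0.74 and -0.08 in C57BL/6J and 0.48, 0.47 and 0.31 in BTBR. The C57BL/6J mice lay both above and below all BTBR mice, with an SD of 0.54 against 0.09. The difference was -0.12 with a 95% interval of -0.76 to 0.52 (limma, adjusted p = 0.896), and it was -0.37 on slide 1 and 0.39 on slide 2. The mean of both Gabra5 probes differed by 0.0053 with a standard error of 0.22. Gabra5 is the neighbour of Gabrg3 on chromosome 7, and its intervals leave room for a difference of about the size seen for the brighter Gabrg3 probe in either direction.

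Gabrb2 encodes the beta2 subunit, the beta subunit of the most common receptor type of the adult forebrain. At A_51_P227679 (base 7240 of NM_008070, chr11:42445782-42445841, plus strand) the log2 levels were 4.82, 4.46 and 4.49 in C57BL/6J and 4.54, 4.56 and 4.80 in BTBR. The ranges of the strains nearly coincided, and the difference was 0.05 with a 95% interval of -0.30 to 0.40 (limma, adjusted p = 0.93). At A_52_P91563, 1.76 kb upstream in the genome (base 5476, chr11:42444018-42444077), the levels were 3.97, 3.74 and 3.32 in C57BL/6J and 3.62, 3.66 and 3.76 in BTBR. All BTBR mice lay inside the C57BL/6J range, and the difference was 0.0049 with a 95% interval of -0.42 to 0.43 (limma, adjusted p = 0.995). Its sign depended on the slide, at -0.21 on slide 1 and 0.44 on slide 2.

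The third tested Gabrb2 probe, A_52_P460687 (base 3652, chr11:42442194-42442253), read 0.23, 0.00 and -0.10 in C57BL/6J and 0.30, 0.14 and 0.43 in BTBR. BTBR was higher on average and overlapped only with C57BL/6J 1. The difference was 0.24 with a 95% interval of -0.08 to 0.57 (limma, adjusted p = 0.457), and it kept its sign in all 19 alternatives. Against A_51_P227679 it differed by 0.20 more between the strains, with values of the pair that did not overlap (exact two-sided permutation p = 0.1, adjusted 0.3). A Gabrb2 probe designed on the transcript ENSMUST00000143626, A_52_P260709, lies 101 kb from the brightest Gabrb2 probe and was above background on 1 array, C57BL/6J 3.

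Gabrd encodes the delta subunit, which replaces gamma in extrasynaptic receptors that respond to neurosteroids. Its single probe, A_51_P149623 (base 1745 of NM_008072), is placed by the files at chr4:154759071-154759089, a stretch of 19 bases. The log2 levels were 4.43, 4.33 and 4.47 in C57BL/6J and 4.14, 4.17 and 4.45 in BTBR. BTBR 1 and 2 were the lowest of the 6 mice and BTBR 3 lay within the C57BL/6J range. The difference was -0.15 with a 95% interval of -0.45 to 0.15 (limma, adjusted p = 0.645), at -0.22 on slide 1 and -0.02 on slide 2. It stayed below 0 in all 20 alternatives, from -0.25 to -0.08.

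The third C57BL/6J mouse often gave the lowest value for these genes. It was the lowest of all 6 mice for 7 of the 10 tested probes. It was also the lowest C57BL/6J mouse for 6 of the 7 probes of Gabra3, Gabra5 and Gabrb2. The same counts over all tested probes were not made, so they are not shown to be particular to these genes. Over all tested probes its mean level was -1.42, against -1.38 and -1.40 for the other C57BL/6J mice. The array of C57BL/6J 3 also had the highest striatal marker level, 7.96 times the median of the others. Its summed level of cortical excitatory markers was 0.753 times their median. The part of these markers in the subunit levels was not tested. The standard errors of the 10 differences were 0.12 to 0.27 on the log2 scale. For 9 of the 10 probes the 95% interval lay within 1 unit of 0 on either side, so a 2-fold difference lies outside it. Differences of the size of the standard errors were not detectable with 3 mice per strain.

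**Figure D3:**
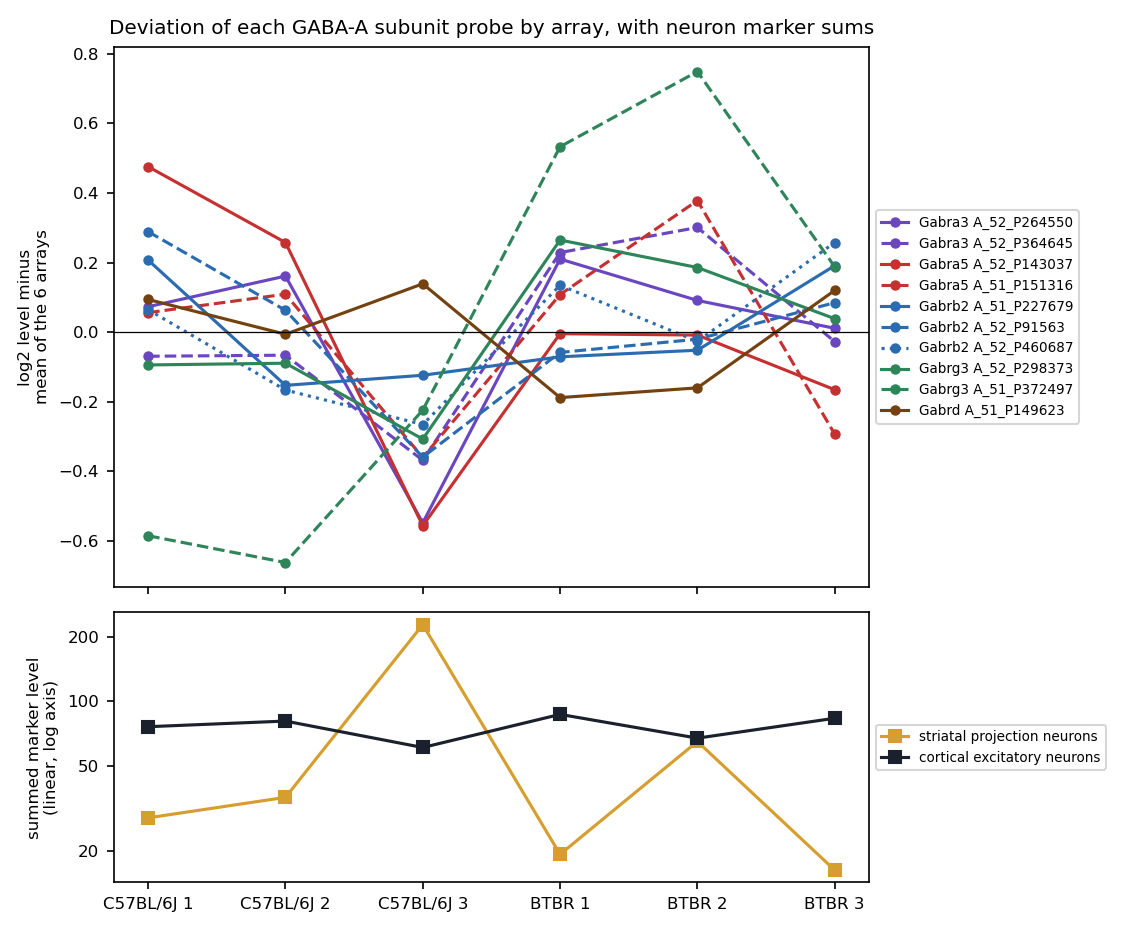
The upper panel plots, for each tested probe, its log2 level on each array minus its mean over the 6 arrays, with lines that only join points of 1 probe, and the lower panel plots the summed linear level of striatal and cortical excitatory neuron markers on a log axis. The third C57BL/6J array has the lowest values for 7 of the 10 probes and the highest striatal marker sum, at 228, while Gabrg3 probe A_51_P372497 is lowest on C57BL/6J 1 and 2.

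Among the other GABA-A subunits, 9 of 13 genes on the array were tested with 17 probes. Of these, 3 probes were higher and 1 was lower in BTBR, with a median of 0.10. Of all tested probes, 2.19% were called higher and 3.25% lower. The 3 higher probes were those of Gabra2, the alpha2 subunit of chromosome 5, at log2 differences of 1.64 to 1.70 (limma, adjusted p of 0.00255 to 0.0171). Gabra4, an alpha subunit that pairs with delta, gave -0.16 (adjusted p = 0.582). The genes Gabra6, Gabre, Gabrq and Gabrr2 were too dim to be tested.

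**Figure D4:**
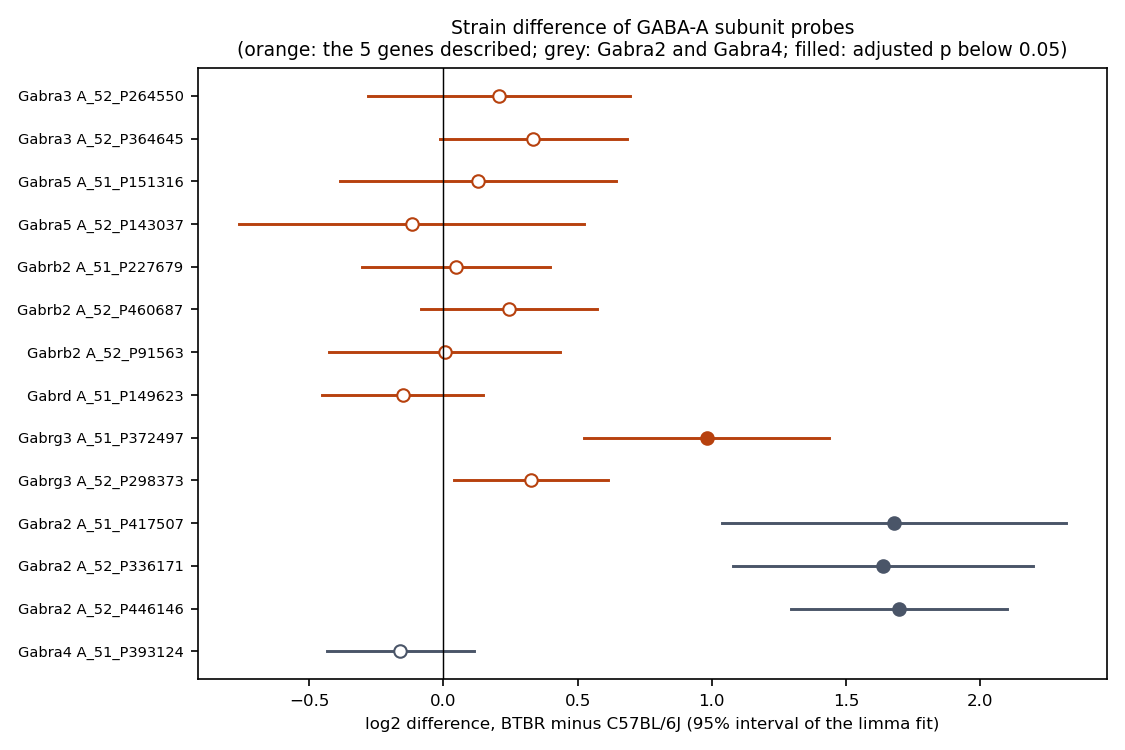
The log2 difference, BTBR minus C57BL/6J, of each probe is plotted with its 95% interval, the 10 probes described here in orange and the 4 tested probes of Gabra2 and Gabra4 in grey, filled where limma's adjusted p was below 0.05. The 4 filled points are Gabrg3 A_51_P372497 at 0.98 and the 3 Gabra2 probes at 1.64 to 1.70.

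Genes around the Gabrg3, Gabra5, Gabrb2, Gabra3 and Gabrd loci were also compared. Of 26 listed genes, 22 were tested with 45 probes, and 1 probe was higher, 1 lower. The higher one was Ndn, an imprinted gene of chromosome 7 that encodes necdin, with a log2 level of 2.05 ± 0.27 in C57BL/6J and 2.85 ± 0.0070 in BTBR (SD, n = 3). This is 1.74-fold (limma, adjusted p = 0.0346), held in 12 of 20 alternatives. Hmgb3, on chromosome X, differed by -0.48 (adjusted p = 0.177).

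The list of genes that place GABA-A receptors in the membrane also held Mocs1. The list's 38 tested probes, from 19 genes, had a median of -0.05. Against 5.44% of all tested probes past the test, only 1 of the 38 passed, higher in BTBR. That probe was 1 of 3 for Mocs1, an enzyme of the molybdenum cofactor pathway that gephyrin also serves, at 0.73 (limma, adjusted p = 0.0384, held in 6 of 19 alternatives), while its other probes gave -0.24 and -0.16. For Gphn, the gene of the gephyrin scaffold, the probe with the smallest p gave -0.24 (limma, adjusted p = 0.381). The files place that probe on the minus strand and the other Gphn probes on the plus strand, so it may not read the gephyrin transcript. The brightest Gphn probe gave -0.09 (0.771) and the remaining tested one -0.19 (0.788). For the palmitoyl transferase gene Zdhhc3 the probe with the smallest p gave -0.46 (0.13). That probe was dim, above background on 1 BTBR array, and the brighter Zdhhc3 probes gave -0.13 and -0.05. For the receptor trafficking gene Plcl1 the probe with the smallest p gave -0.84 (0.14), and its other probes gave -0.16 and -0.14. Among 12 probes of 7 genes that set or sense chloride, 1 passed the test, against the same 5.44% of all tested probes. It was the probe of Slc12a2, the importer NKCC1, higher by 0.51 with a standard error of 0.11 (1.42-fold, limma, adjusted p = 0.047, held in 8 of 20 alternatives). The exporter Slc12a5 gave 0.17 (0.539). The Wnk1 probes differed in sign, at 0.33 (adjusted p = 0.235) and -0.31 (0.289) for those with the smallest p. The channel gene Clcn2 gave 0.35 (0.38) and 0.18 (0.673) at its probes.

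No probe passed limma's test among 14 of GABA-B receptor genes, where 2 had an unadjusted p below 0.05, or among 16 of GABA synthesis and transport genes, where 1 did. Of all tested probes, 5.44% passed and 16.8% had an unadjusted p below 0.05. The probes with the smallest p were 1 of the receptor subunit Gabbr2 at 0.35 (limma, adjusted p = 0.185) and 1 of the transporter GAT3 gene Slc6a11 at 0.55 (0.109). Other tested probes gave 0.59 and 0.39 for Gabbr2 and 0.13 for Slc6a11. The medians of the lists were 0.07 and -0.03. Among the rest, the probe with the smallest p gave 0.30 for Gabbr1 (0.467), -0.20 for Kctd12b (0.435) and 0.18 for Kctd12 (0.662). For Slc6a13, Slc6a12 and Aldh5a1 that probe gave 0.33 (0.616), 0.33 (0.644) and 0.12 (0.649). The brighter Gabbr1 probes had the other sign, at -0.07 and -0.03. Other tested probes gave -0.02 for Kctd12b, 0.13 for Kctd12, 0.33 for Slc6a13 and 0.32 for Aldh5a1.

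Finally, the brightest probe of each gene was set against those of 14405 other genes over the 6 arrays, as a description with no test, since the arrays share strain and slide. Gabra3 ran closest to Fam13c, Rspo2 and Kifc2 (Pearson r of 0.996, 0.995 and 0.995), and Gabra5 to Sco1, Abi1 and Gdf5 (0.997, 0.996 and 0.993). Gabrb2 ran closest to Tube1, Clvs2 and Yy1 (0.992, 0.987 and 0.984), and Gabrg3 to Mymk, Thoc2l and Adgrg5 (0.992 each). Gabrd ran closest to Crispld2, Syt2 and Pcdhb13 (0.986, 0.979 and 0.977). With 6 arrays such values are common: between 15 genes for Gabrd and 104 for Gabra3 reached an r of 0.95 or more.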

How the data were processed

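Scanner files of 6 one-colour arrays were used, 1 per mouse, deposited by the authors as intensity values on a linear scale with background-subtracted (processed) signals. The submitters' processing notes name Feature Extraction 9.1 as the image software, whereas its version is 10.7.3.1 per the file headers. Positions are in mm9, per the file headers. The authors' series matrix holds deposited log2 values, used only as an alternative. Their column medians were 8.82 to 8.83. Each column correlated at 0.915 to 0.929 with its own array, and their strain differences correlated at 0.792 with those computed here, with a slope of 0.374. The strain differences thus rise together, but the sign can differ at single probes, as at Gabrb2 A_51_P227679 and A_52_P91563. The scaling, centring and normalization stay unknown.

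From the log2 processed signals of an array, the 75th percentile of its 41174 non-control probes was subtracted. Outlier-flagged spots (54 to 107 per array) were dropped if the probe had another spot, and a probe's spots were averaged. The 30011 probes well above background on at least 3 of 6 arrays were fitted with limma 3.58.1 in R 4.3.3 (lmFit, eBayes, no covariate), with Benjamini-Hochberg adjustment and a threshold of 0.05. The scripts were tested on simulated data. The number of arrays limits the precision.

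Genes were named through RefSeq accessions (27816 probes), symbols (5503) or synonyms (380) of GRCm38.p6; 1233 kept the file's name and 6242 had none. The genes described, the gene lists and the tests were chosen with earlier results of these data known. All probes of the 5 genes are named; from each list, up to 4 genes with the smallest p and every gene past the test, except that some are not reported here; and for each of the 5 genes the 3 most correlated genes. Replicate numbers were not used to pair the mice in the main fit. Deviations of same-numbered mice correlated at 0.03, -0.17 and -0.08, and those of differently numbered mice at -0.21 to 0.27. Such values cannot show whether the mice were matched in some way, and replicate 3 of each strain is also the slide 2 mouse. The 21 alternatives covered background, scaling, filters, flags, the authors' values, probe summaries, prior, weights, slide, replicate number and left-out mice.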

Additional observations from a re-analysis of the deposited data

How the results depend on the processing

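Of the 10 differences, those of Gabrg3 A_52_P298373, Gabrb2 A_52_P460687 and Gabrd kept direction and side of the threshold in every alternative run. The count of probes of the 5 genes past the test was 1, and 0 with normexp, without the filter on dim probes, with the brightest probe per gene, with slide as a block, with the replicate block and without C57BL/6J 3 and BTBR 2; without 1 mouse it was 0 to 1. At an unadjusted p below 0.05 these settings gave 0 probes for normexp, 1 for the brightest probe and the replicate block, 2 without the filter and without the 2 mice, and 3 for slide. Gabrg3 A_51_P372497 had adjusted p = 0.0782 without the filter and 0.134 with the replicate block. Over all probes the count was 1632, and 170 with normexp, 938 with the brightest and 969 with the mean of a gene's probes, 3928 with array weights, 922 with the replicate block, 1008 without C57BL/6J 3 and BTBR 2, and 858 to 1472 without 1 mouse. Of the calls, 40.3% were higher in BTBR, against 25.9% with normexp, which moved the median of all probes from 0.04 to -0.09, and 51.3% with array weights. For other subunits the count was 4, and 0 with normexp (5 at an unadjusted p below 0.05), 1 with the brightest and with the mean probe, and 2 to 4 without 1 mouse, lowest without C57BL/6J 1.

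Signs turned only for differences that did not pass. Gabra3 A_52_P264550 gave -0.0069 without C57BL/6J 3 and BTBR 2, and -0.013 to 0.34 without 1 mouse; Gabra3 A_52_P364645 gave -0.0097 with normexp. Gabra5 A_52_P143037 ranged from -0.45 to 0.090 with mice left out, the latter without C57BL/6J 1. Gabra5 A_51_P151316 gave -0.18 without C57BL/6J 3 and BTBR 2, -0.019 without C57BL/6J 3, -0.028 without BTBR 2 and up to 0.31 without another mouse. Gabrb2 A_51_P227679 gave -0.016 with the authors' values, -0.089 on slide 1, and -0.019, -0.0047 and -0.038 without C57BL/6J 2, C57BL/6J 3 and BTBR 3, up to 0.16 without another mouse. Gabrb2 A_52_P91563 gave -0.015 with median scaling, -0.018 with the authors' values, -0.10 with array weights, -0.21 on slide 1, -0.16 without C57BL/6J 3 and BTBR 2, and -0.17 and -0.037 without C57BL/6J 3 and BTBR 3, up to 0.15 without another mouse. The causes were not tested.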
